A study of Mus musculus with 2 samples.

Results

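A small set of 6 genes of the Wnt and TGF-beta signalling pathways were each named as the nearest gene of a window enriched in 5-hydroxymethylcytosine (5hmC): the Wnt receptor gene Fzd5, the Wnt transcription factor genes Tcf7l1 and Tcf7l2, the TGF-beta ligand gene Tgfb2, the TGF-beta receptor gene Tgfbr2 and the signal mediator gene Smad2. They were selected on the enrichment itself: members were chosen by having a window called in this comparison with the gene named as nearest, so their presence in the list is not a finding. Each gene had 1 window, so the set holds 6 of the 668 windows and 6 of the 610 genes in the list. The windows came from a comparison of 2 libraries, DNA enriched with a polyclonal antibody against 5hmC and total input DNA. Both were made from R1 mouse embryonic stem cells, an established line kept in 2i medium, which holds cells in naive pluripotency, and then left to differentiate without a directed lineage. The cells were grown as embryoid bodies under atmospheric oxygen, with KnockOut serum, to day 3. DNA of triplicate samples was pooled before enrichment, which leaves 1 library in each group, without a spread between replicates and without a test between the groups. The identity of the cells could not be checked against marker genes, since no expression was measured. The number of reads behind a window is unknown, and exact binomial intervals below cover counting error only. The members were chosen and the other windows are the rest of the list, so the intervals are no test between them.

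5hmC is made from 5-methylcytosine by the TET enzymes, and in mammalian DNA it is known mainly at CpG dinucleotides, often at enhancers and in the bodies of active genes. In the Wnt pathway, a secreted ligand binds a Frizzled receptor, beta-catenin is stabilised, and it acts in the nucleus with transcription factors of the TCF/LEF family. In the TGF-beta pathway, a ligand joins type I and type II receptor kinases, which phosphorylate SMAD proteins that then enter the nucleus. Both pathways are known to act in the exit from pluripotency and in the formation of mesoderm and endoderm.

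The 6 windows lay in tandem repeats or an endogenous retrovirus, contained no CpG, and were annotated as intergenic, in no gene with a curated transcript. Each of these traits is common in the list. An annotated repeat was present in 555 of the 662 other windows (83.8%), and 409 of them (61.8%) were annotated as intergenic. Only 106 of those 662 windows (16.0%) held a CpG. The sequence is shown first, since the members share AC or GT motifs. The file gives no window sequence, but it lists each match to a sequence motif with its letters and its offset, and the plus strand of GRCm38 was put together from overlapping matches. The longest unbroken stretch recovered from each 51 bp window is given here for 5 members, and the sequence at Smad2 is not shown. Capitals mark the longest run of strictly alternating A and C, or G and T, and both such runs where 2 are equally long.
Fzd5, chr1:64777137-64777174: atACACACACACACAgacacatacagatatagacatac
Tcf7l1, chr6:72820649-72820694: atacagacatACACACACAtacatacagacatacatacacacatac
Tcf7l2, chr19:55969480-55969525: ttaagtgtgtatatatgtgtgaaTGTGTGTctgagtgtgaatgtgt
Tgfb2, chr1:186461337-186461358: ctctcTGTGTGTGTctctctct
Tgfbr2, chr9:116301212-116301253: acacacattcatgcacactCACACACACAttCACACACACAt

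These stretches were 38 bases long for Fzd5, 46 for Tcf7l1, 46 for Tcf7l2, 22 for Tgfb2 and 42 for Tgfbr2. CA or TG dinucleotides in series were present in each of these, although of the 6 windows only those of Tgfbr2 and Smad2 carried the CA or TG repeat annotation. The longest uninterrupted run was 13 bases at Fzd5, 10 at Tgfbr2, 9 at Tcf7l1 and at Tgfb2, 7 at Tcf7l2 and 6 at Smad2. The median of the other 662 windows was 8 bases, with quartiles of 5 and 10 and a highest value of 31, so 5 of the 6 runs lay within the quartiles and that of Fzd5 above them. Runs of 10 or more bases were recovered in 2 of the 6 windows (33.3%) and in 216 of the 662 others (32.6%). Long motif entries end at 255 characters in the file, in 239 windows and in 4 of these 6, so a run or stretch may be longer than recovered, most often at its right-hand end.

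All 3 deposited motifs made of alternating AC or GT, of 8, 10 and 12 bases, matched every one of the 6 windows. Among the other windows, all 3 matched in 469 of 662 (70.8%, 95% exact binomial interval 67.2 to 74.3). The deposited motif GTCTGTCT was the only further one present, at Fzd5 and Tcf7l1, against 75 of the 662 other windows (11.3%). None of the other 11 motif columns had a match in these windows. The pathways have their own short DNA letters, CAGAC for SMAD proteins and CTTTG for TCF/LEF factors, and both strands of the recovered letters were searched for them. CAGAC, which overlaps the deposited motif GTCTGTCT, was found at Fzd5, Tcf7l1 and Tcf7l2, in 3 of 6 windows against 136 of all 668 windows (20.4%) and 49.6% of the 300 bp promoters of the GRCm38.p6 RefSeq table. CTTTG was found in none of the 6, in 8 of all 668 windows (1.20%) and in 53.9% of promoters. A median of 38 bases was recovered per 51 bp window, against 300 bp in a promoter. The shares of windows and promoters are therefore not comparable. Recovery also differed between windows, with 34 to 46 bases in the 6 members. In the other windows it ran from 0 to 51, with a lower quartile of 24. Unread letters cannot show CAGAC, so the shares of members and of all windows are not compared either. Letters could be recovered only where a motif matched, and most of the matched motifs are AC or GT repeats, so a search of this kind sees little else.

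No CpG was present in any of the 6 windows, by the deposited CpG fraction of the whole window. With 0 of 6, the exact 95% interval reaches 45.9%, and 106 of the 662 other windows (16.0%, 13.3 to 19.0) had at least 1 CpG. The 6 windows were chosen and not drawn at random, so the intervals show only how few they are and compare nothing. GC content was 33.3% at Tcf7l1, 35.3% at Tcf7l2, 37.3% at Fzd5, 41.2% at Smad2, 43.1% at Tgfbr2 and 51.0% at Tgfb2. The 3 Wnt windows were thus below the 3 TGF-beta windows, in a set chosen without regard to GC content but too small to compare. The median of the other windows was 43.1%, with quartiles of 39.2% and 49.0%.

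**Figure D1:**
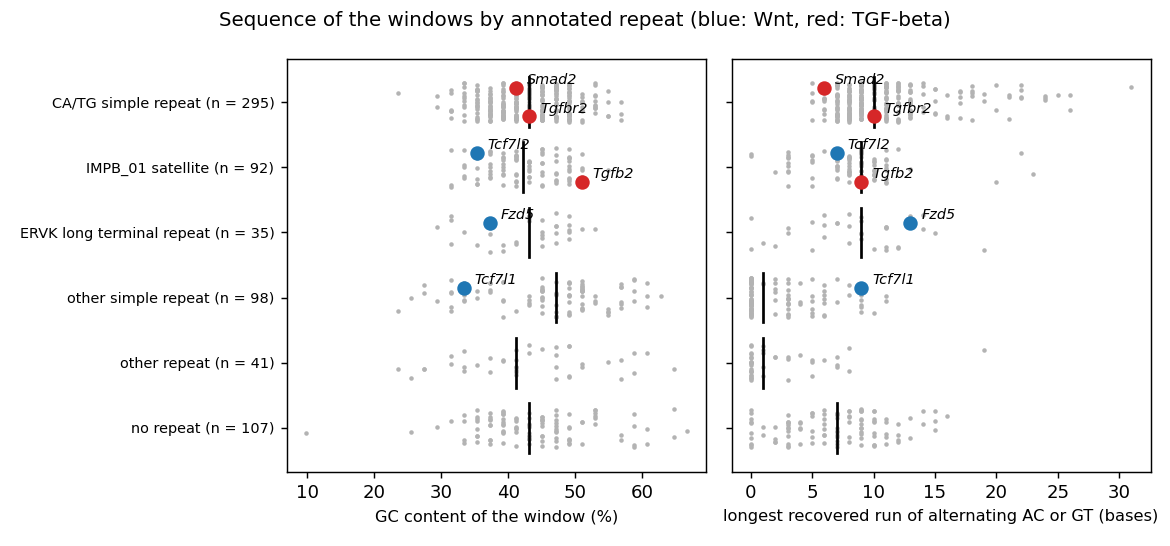
GC content in percent (left) and longest recovered run of alternating AC or GT in bases (right) of all 668 windows, by annotated repeat; grey points are windows with vertical jitter, black bars are medians, and large points are windows of Wnt (blue) and TGF-beta (red) genes. Fzd5 has the longest run of the 6, with 13 bases. Tcf7l1, with 9 bases, lies above the median of 1 base for simple repeats other than CA or TG. A median of only 8 bases per window was recovered in that class, so its runs are largely unread.

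Fzd5 encodes a Frizzled receptor for Wnt ligands. Its window (GRCm38 chromosome 1, 64777136 to 64777186) was annotated as intergenic and as RLTR17B_Mm, a long terminal repeat of the ERVK class of endogenous retroviruses. ERVK repeats held 35 windows (5.24%) and RLTR17B_Mm 11 of them. The window lay 39.4 kb upstream of the start of Fzd5, a short gene of 7.19 kb. On its other side the near end of Plekhm3 was 12.0 kb away, so the window was closer to the body of Plekhm3 than to Fzd5. The peak score was 3.65, a value shared by 76 windows, which gives ranks 520 to 595 of 668. It was below the median of its repeat class, 5.22. Of the other 6 intergenic RLTR17B_Mm windows, the most similar were those of Ywhab (score 3.65, 14.4 kb from the start) and Mark1 (4.04, 78.9 kb), each with 14 of 15 motif columns in the same state. Both of those windows held 1 CpG, and the Fzd5 window held none.

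Tcf7l1 encodes a TCF/LEF factor that acts mostly as a repressor and is known in embryonic stem cells for restraining pluripotency genes. Its window (chromosome 6, 72820649 to 72820699) lay in a CATA simple repeat, an annotation of 5 windows in the list, between Tcf7l1 and Kcmf1. It was 31.6 kb upstream of the start of Tcf7l1, the smallest distance of the 6, and 20.4 kb from the near end of Kcmf1. The score was 4.95, which is the median of the whole list and is shared by 117 windows (ranks 295 to 411). In the class of this window, simple repeats other than CA or TG, the median recovered run of AC or GT was 1 base. The run here was 9 bases. However, a median of 8 bases per window was recovered in that class, against 46 here. The runs are therefore not comparable. Its most similar windows, among 3 other intergenic CATA windows, were those of Cep85l (score 4.04, 3.82 kb) and E2f3 (6.35, 29.9 kb). Both were upstream of their genes without a CpG, as at Tcf7l1. The recovered runs were 9 bases at Cep85l and 6 at E2f3, so the run at Tcf7l1 is not particular to it.

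Tcf7l2 encodes a TCF/LEF factor that activates Wnt target genes with beta-catenin. Its window (chromosome 19, 55969476 to 55969526) lay in the satellite annotated as IMPB_01, which held 92 windows of the list (13.8%). The file places it 74.2 kb downstream of a start of Tcf7l2, but that start is an internal one, 153.5 kb inside the gene. From the outermost start the distance was 227.7 kb, and the window lay 35.8 kb past the 3' end of the gene. The next gene with a curated transcript on the other side, Habp2, was 317.6 kb away. The score was 2.96, the lowest of the 6, shared by 43 windows (ranks 604 to 646), and 3.29% of all windows scored lower. The most similar of 51 other intergenic IMPB_01 windows were those of Sox2ot (2.96, 81.5 kb) and Dbx1 (3.22, 16.3 kb), with all 15 motif columns in the same state.

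Tgfb2 encodes one of the TGF-beta ligands. Its window (chromosome 1, 186461317 to 186461367) was also IMPB_01, and it was the most distant of the 6, at 244.7 kb downstream of a start of the gene and 161.4 kb past its 3' end. In the GRCm38.p6 RefSeq table, the starts of the noncoding RNA genes A730004F24Rik, at 97.3 kb, and Gm35546, at 126.0 kb, were closer than that of Tgfb2. The body of a further noncoding RNA gene, Gm35426, began 2.50 kb away. The score was 4.95, as at Tcf7l1. This window had the highest GC content of the 6, 51.0% against a median of 42.2% in IMPB_01 windows. The most similar windows were those of Mir205 (4.95, 114.6 kb) and Vrk1 (4.95, 101.8 kb).

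Tgfbr2 encodes the type II receptor kinase of the TGF-beta ligands. Its window (chromosome 9, 116301211 to 116301261) lay in a CA repeat, 125.9 kb upstream of the start. Here too a noncoding RNA gene, Gm4668, had a closer start in the RefSeq table, at 112.1 kb. On the other side, the body of a further noncoding RNA gene, D730003K21Rik, was 26.1 kb away. The score was 3.65, as at Fzd5. Among the 295 windows in CA or TG repeats it shared ranks 231 to 261. Its longest run of 10 bases equalled the median of those windows. The most similar of 88 other intergenic CA windows were those of 1700029J03Rik (3.65, 65.5 kb) and Slc9a8 (3.65, 35.7 kb).

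Smad2 encodes the receptor-regulated SMAD that carries TGF-beta, activin and Nodal signals. Its window (chromosome 18, 76390443 to 76390493) lay in a TG repeat, 129.3 kb downstream of a start that is 20.0 kb inside the gene, and 78.7 kb past the 3' end. The score of 6.54 was the highest of the 6, shared by 29 windows (ranks 92 to 120), and 82.0% of all windows scored lower. Its longest recovered run, 6 bases, was the shortest recovered of the 6. The most similar windows, both with all 15 motif columns in the same state, were those of Hmga2 (6.54, 120.4 kb) and 2610028E06Rik (6.54, 101.1 kb), and in each a run of 22 bases was recovered. In the file, 2 motif entries of the Smad2 window end at 255 characters, so its run is a lower limit and a difference in run length is not shown.

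**Figure D2:**
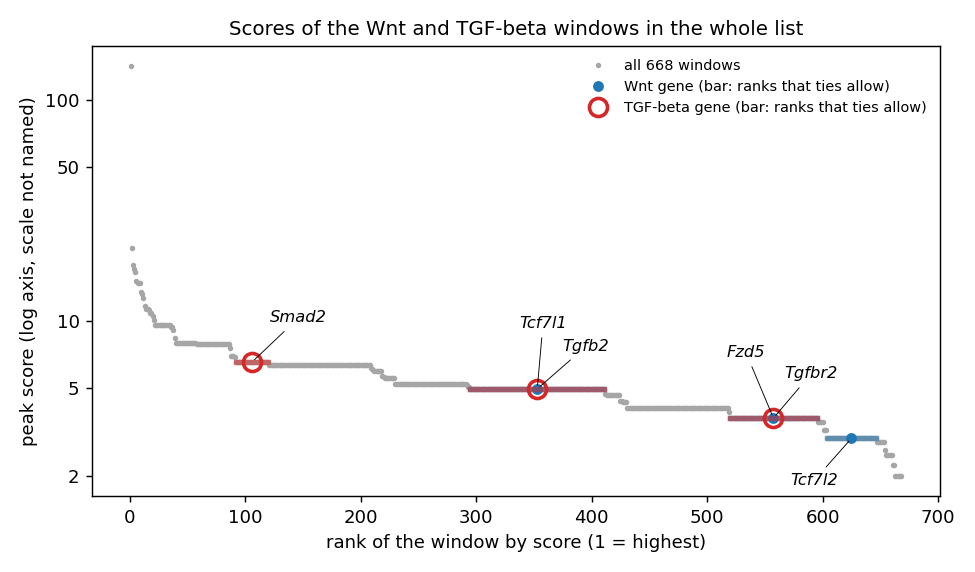
Peak score (log axis) against rank for all 668 windows (grey); blue points are Wnt genes, red rings are TGF-beta genes, and bars span the ranks that tied scores allow. Tcf7l1 and Tgfb2 share a score of 4.95 and Fzd5 and Tgfbr2 a score of 3.65, while Smad2 at 6.54 is the highest and Tcf7l2 at 2.96 the lowest.

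The scores ranged from 2.96 to 6.54, whereas the whole list ran from 2.00 to 142. They took 4 distinct values, and 265 of the 668 windows had one of these values. Of the 6 windows, 3 scored at or above the median of 4.95 and 3 below it. By pathway, the Wnt scores were 2.96, 3.65 and 4.95 and the TGF-beta scores 3.65, 4.95 and 6.54, so the ranges of both sets overlapped. The score has no named scale and describes the order of windows in this list only. CA or TG repeats made up 42.7% of the windows scoring 4.95, 40.8% of those scoring 3.65, 53.5% of those scoring 2.96 and 62.1% of those scoring 6.54, beside 44.2% of the whole list.

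All 6 windows were far from a start, and none was in its gene or within 5 kb of the start, against 203 of the 662 other windows (30.7%, 27.2 to 34.3). Each was more than 30 kb away, as were 375 of the others (56.6%). Upstream of their gene lay 3 (Fzd5, Tcf7l1 and Tgfbr2) and 3 lay past its 3' end (Tcf7l2, Tgfb2 and Smad2). By the distances in the file, the windows of Tgfb2, Tgfbr2 and Smad2 were more than 100 kb from the start, as were 168 of the 662 other windows (25.4%). From the outermost start, the Tcf7l2 window, at 227.7 kb, was also beyond 100 kb. The stretch between the flanking genes with a curated transcript was 51.4 kb at Fzd5 and 52.1 kb at Tcf7l1. It was 241.9 kb at Smad2, 353.4 kb at Tcf7l2, 377.9 kb at Tgfbr2 and 394.5 kb at Tgfb2. The median stretch was 155.3 kb for 374 windows of other genes that the authors annotated as intergenic and that lie in no such gene. The closest other window in the list was 190.5 kb away at Tgfb2, 255.8 kb at Tcf7l1 and 408.3 kb at Tcf7l2. It was 487.5 kb away at Smad2, 1.42 Mb at Tgfbr2 and 4.68 Mb at Fzd5. The spacing between the other windows was not measured, so these distances are not read as isolation.

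A repeat, the absence of a CpG, an intergenic position, an AC or GT motif and a distance above 30 kb were found together in all 6 windows. The same combination was present in 154 of the 662 other windows (23.3%, 20.1 to 26.7). It was put together after the 6 windows had been seen, so it describes them and shows nothing particular to Wnt or TGF-beta genes.

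**Figure D3:**
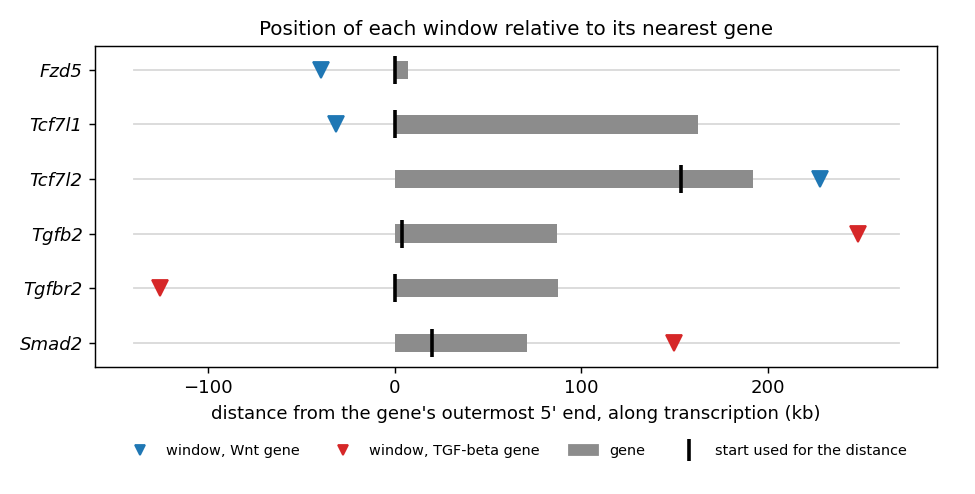
Position of each window along the direction of transcription, in kb from the outermost 5' end of its nearest gene; grey bars are genes, black ticks the starts from which the file counts the distance, and triangles the windows (blue Wnt, red TGF-beta). Every window lies outside its gene, 3 before the 5' end and 3 past the 3' end. Upstream of the outermost 5' end, the distances are 125.9 kb at Tgfbr2, 39.4 kb at Fzd5 and 31.6 kb at Tcf7l1. The Tgfb2 window is the farthest downstream, 248.4 kb from its outermost 5' end.

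The promoters of the same genes had no window, and few promoters of any gene did. Of the 668 windows, 3 with recovered bases overlapped any of the 32851 RefSeq promoters. The absence is thus not particular to these genes. RefSeq promoter sequences of 300 bp were matched for 5 of the 6 genes. The promoter of Fzd5 held 38 CpG and that of Tcf7l1 34, more than in 95.0% and 92.3% of the 32851 promoters in the table, whose median was 7. For Tcf7l2, the outermost promoter held 34 CpG and the internal one, from which the distance to the window was counted, held 7. Tgfbr2 had 15 and Tgfb2 had 10. The window closest to any of these starts was the one 31.6 kb from Tcf7l1. Absence from the list is not a measured absence of 5hmC, because the depth is unknown.

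Lists of 141 genes of both pathways, the 6 members included, were set beside all genes. Of 86 Wnt genes, 3 were the nearest gene of a window (3.49%), and of 55 TGF-beta family genes 3 were (5.45%), beside 2.33% of all 26219 genes. These counts were fixed by the choice of members and nothing is read from them. By role, the listed Wnt genes were 1 of 15 receptors and 2 of 14 nuclear factors. None was listed of 19 ligands, 9 genes of ligand release and potentiation, 16 extracellular or membrane inhibitors and 13 cytoplasmic components. In the TGF-beta family they were 1 of 16 ligands, 1 of 14 receptors and 1 of 8 intracellular mediators, with none of 11 extracellular inhibitors or latency proteins and none of 6 intracellular inhibitors. No transcript of the 141 genes held a window, beside 0.896% of all genes.

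Some genes of these pathways that were not named in the list lay closer to a window than the 6 that were. A window lay within 100 kb of the gene body for 12 of the 141 genes (8.51%), beside 7.30% of all 26215 genes with a curated transcript. Of these 12, the members Tcf7l1, Tcf7l2, Fzd5 and Smad2 were chosen for a window, which raises the share. Without the 6 members it was 8 of 135 genes (5.93%), a share that leaving out listed genes lowers, and neither value is read as a difference from all genes. The other 8 were not listed, since the authors' annotation names another gene as nearest to those windows. Dkk4, which encodes a secreted Wnt inhibitor, was 4.98 kb from a TG repeat window annotated as intronic, with a score of 7.92, that the list assigns to A930013F10Rik. Kremen1, a Dickkopf co-receptor gene, was 20.1 kb from a TG repeat window assigned to Emid1 (4.04). Acvr1, a type I receptor gene of the BMP branch, was 23.3 kb from a TG repeat window assigned to Upp2 (3.65). Ror2, a Wnt5a receptor gene, was 30.4 kb from a TG repeat window assigned to Nfil3 (4.95).

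The other 4 unlisted genes were farther from their windows. Rnf43, which encodes a ubiquitin ligase that removes Frizzled receptors, was 48.8 kb from a window assigned to Mpo, with a score of 7.92. That was the only window near the 12 genes with no annotated repeat and the only one with a CpG. Smad5 was 58.2 kb from a window assigned to Trpc7 (5.22), Tgfb1 was 66.9 kb from an IMPB_01 window assigned to Axl (4.95), and Wnt8a was 96.3 kb from a CA repeat window assigned to Cdc23 (4.66). These 8 genes were singled out after their values were seen. Over the whole lists, the median distance from the gene body to the nearest window was 1.08 Mb for Wnt genes and 1.34 Mb for TGF-beta genes, beside 1.25 Mb for all genes, and it was 1.22 Mb for the 135 genes of both lists without the members.

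**Figure D4:**
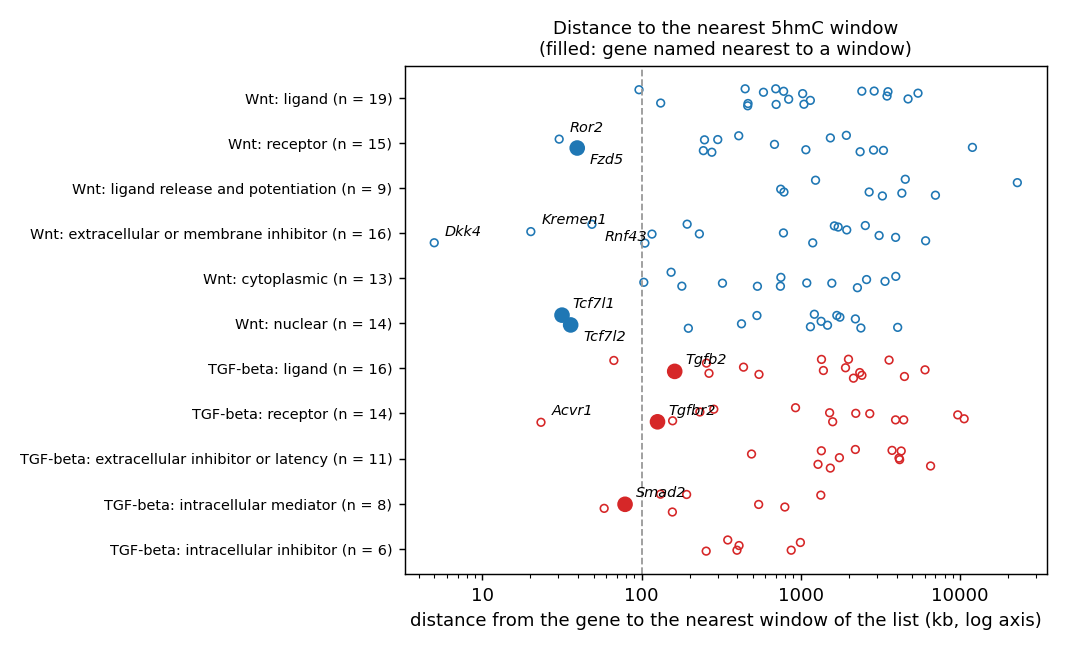
Distance from each of 141 Wnt (blue) and TGF-beta (red) genes to the nearest of the 668 windows, in kb on a log axis, by role; filled points are the 6 genes named as nearest gene, the dashed line marks 100 kb, and vertical jitter has no meaning. Dkk4 at 4.98 kb, Kremen1 at 20.1 kb, Acvr1 at 23.3 kb and Ror2 at 30.4 kb are closer to a window than any filled point.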

How the data were processed

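The file is a list of regions that the authors made from 1 library of 5hmC-enriched DNA and 1 of input DNA. The submitters' processing notes name Bowtie, MACS 1.0.1 and the build mm9 with no role for each, and the labels' protocols name BaseSpace and Galaxy. The deposited coordinates are those of GRCm38: the start implied by window and distance equals an end of Fzd5, Tcf7l1 and Tgfbr2 in the GRCm38.p6 RefSeq gene table. The authors deposited a peak score per window on an unnamed scale, used here for order only, and CpG and GC content as fractions of the 51 bp window. Location, repeat, nearest gene and motifs are the authors' annotation.

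Bases recovered from motif matches conflicted in no window, and 67 of 67 equalled RefSeq promoter sequence in the 3 windows that overlapped one. The procedure was tested on simulated windows with complete motif entries and a planted AC or GT run. The cut of entries at 255 characters was not part of that simulation, so its effect was not tested. Similar windows shared repeat name and location and were ordered by motif columns in the same state, then score, then distance; 2 were named per member. Other named genes flank a window or are pathway genes within 100 kb of one. The members and lists were chosen with earlier results of these data known. Alternatives were stricter scores, other gene assignments, and subsets by distance, CpG and repeat. Python 3.11.15, pandas 2.3.3 and SciPy 1.17.1 were used.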

Additional observations from a re-analysis of the deposited data

How the results depend on the processing

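Scores of at least the median, or at least 2 times the lowest score, left 3 of the 6 windows (Smad2, Tcf7l1 and Tgfb2), with 1 Wnt gene and 2 TGF-beta genes; all 3 windows were in a repeat, all 3 had an AC or GT motif, and 0 had a CpG or lay within 5 kb of the start. Using the gene that holds the window, requiring the window in the gene or within 5 kb, requiring a CpG, or leaving out repeats each left 0 windows, 0 Wnt genes and 0 TGF-beta genes. Taking the nearest curated start of the RefSeq promoter table, an alternative chosen after seeing the data, left 3 windows, those of the 3 Wnt genes, and 0 TGF-beta genes. That table covers 5 of the 6 windows, not chromosome 18, so Smad2 was not assessed; for Tgfb2 and Tgfbr2 a noncoding RNA start was closer. By the same table, 403 of 643 windows (62.7%) kept the authors' gene. Ranks within the repeat class replace the scale of 668 windows with that of the class and are given in the text where used. No paired analysis was possible because each group is 1 library. Depth is unknown, which limits every statement on windows that are not in the list.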
